A study of Mus musculus with 8 samples.

Results

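The iodide transporters and channels of thyrocytes are a set of 9 genes whose products carry iodide, or the ions and substrates coupled to it, across the membranes of the thyroid follicular cell. They are Slc5a5, Slc5a8, Ano1, Slc26a4, Slc26a7, Cftr, Clcn5, Kcnq1 and Kcne2. Members were taken by gene name from the array annotation by a rule that uses no measured value, although the set was proposed with earlier results of these data known. All 9 were found among the 21021 genes with a RefSeq probe, and they were read by 12 of the 55681 probes.

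Thyroids of female Balb/c mice, 8 weeks of age and fed a normal-iodide diet, were compared 24 hours after intraperitoneal 99mTcO4- or without it, with 4 animals in each group. The exposed thyroids (S539, S588, S589 and S590) had absorbed 30 Gy from the isotope. The controls, numbered 1 to 4, are described as untreated in the study's text and as given saline in a legend. Each thyroid was hybridised to 1 one-colour array, and all 8 arrays shared 1 slide. The exposed thyroids lay in slide row 1 and the controls in row 2, so row and exposure cannot be told apart.

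Iodide enters the thyrocyte at its basolateral side through NIS, the sodium iodide symporter encoded by Slc5a5, which draws on the sodium gradient kept by the sodium pump. The potassium channel formed by Kcnq1 and Kcne2 lies in the same membrane and is needed for normal iodide accumulation in mice. At the apical side iodide passes into the follicle lumen, where it is bound to thyroglobulin, through anion channels and exchangers such as Ano1 and pendrin (Slc26a4). NIS also carries pertechnetate, the anion used here for the exposure.

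The values below are log2 background-subtracted signals after quantile normalization between arrays, and a difference is always exposed minus control on that scale. One unit on it is a doubling of signal. A probe was called when limma's p, adjusted by Benjamini-Hochberg over all 55681 probes, was under 0.05. Counts at an unadjusted p under 0.05 are given without the share over all probes, so they are not read as results about a list. Because probes differ in how well they bind, the level of one gene is not set against that of another.

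The share of spots well above background, the scanner software's own mark, was 60.5% to 75% on the control arrays and 70.9% to 77.3% on the exposed arrays. Thyrocyte identity was clear on every array: all 10 marker genes fixed for it, among them Tg and Pax8, were well above background. Controls 1 and 2 stood apart through 10 thymocyte and T cell markers, whose summed log2 level was 15.83 and 14.86 there and 12.15 to 12.88 on the other 6 arrays. Markers of skeletal muscle, C cells, parathyroid and fat were also bright, so the glands were not pure thyrocytes, and in such RNA fewer cells of a type and less RNA per cell cannot be told apart.

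Probes of 3 members are shown, by the first 30 of their 60 bases, since the results turn on them. The Slc5a5 probe lay on the minus strand at chr8:73407495-73407554 of mm9, and the Ano1 probe on the minus strand at chr7:151774604-151774663. The Kcnq1 probes, on the plus strand at chr7:150612887-150612946 and chr7:150612896-150612955, overlapped by 51 bases. They therefore read nearly the same stretch and are not independent measurements, and the capitals mark the bases that both printed stretches hold. Exon and UTR positions were not analysed here.
Slc5a5: ggcaactgagaacactcagcttctccagac
Ano1: cttgtgcagtgatgtggtttccaatgatgt
Kcnq1, probe for NM_008434: aatttcgtaGTATGATCTTGATTGAGAGAC
Kcnq1, probe for ENSMUST00000105918: GTATGATCTTGATTGAGAGACttttccaaa

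Slc5a5 fell in the exposed thyroids and was the only member called at these settings. On the control arrays its log2 signal was 10.73, 11.92, 12.34 and 10.87. On the exposed arrays it was 8.17, 8.28, 7.32 and 7.94. The lowest control lay 2.45 above the highest exposed thyroid, so the groups did not overlap, although the controls themselves spanned 1.6. The mean signal was 11.46 ± 0.79 (SD, n = 4) in controls and 7.93 ± 0.43 (SD, n = 4) in exposed thyroids. The difference came to -3.53 (standard error 0.41), at an adjusted p of 0.0137 in limma. The control signal was thus 11.6-fold the exposed one, with a 95% interval of 6.04 to 22.2, and the Slc5a5 probe stayed well above background on all 8 arrays. Of all probes, 0.194% were called lower and 0.587% higher, and among RefSeq genes read by their brightest probe 0.295% were called lower and 0.904% higher. Of the 12 member probes, 10 were well above background on all 8 arrays, 1 was called lower and 0 higher.

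The call on Slc5a5 did not hold on every subset of the arrays, while its size did. With each of the 8 arrays left out in turn, the difference stayed between -3.78 and -3.24, and limma's adjusted p lay between 0.0196 and 0.0577. The call was lost in 3 of these 8 cases, those without control 2 (0.0551), without S589 (0.0521) and without S590 (0.0577). Over all probes, 117, 113 and 100 were called in those cases, against 157 to 481 with another array left out and 435 with all arrays. With controls 1 and 2 both left out, the difference was -3.67 and limma's adjusted p was 0.086, and 89 of all probes were called.

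**Figure D1:**
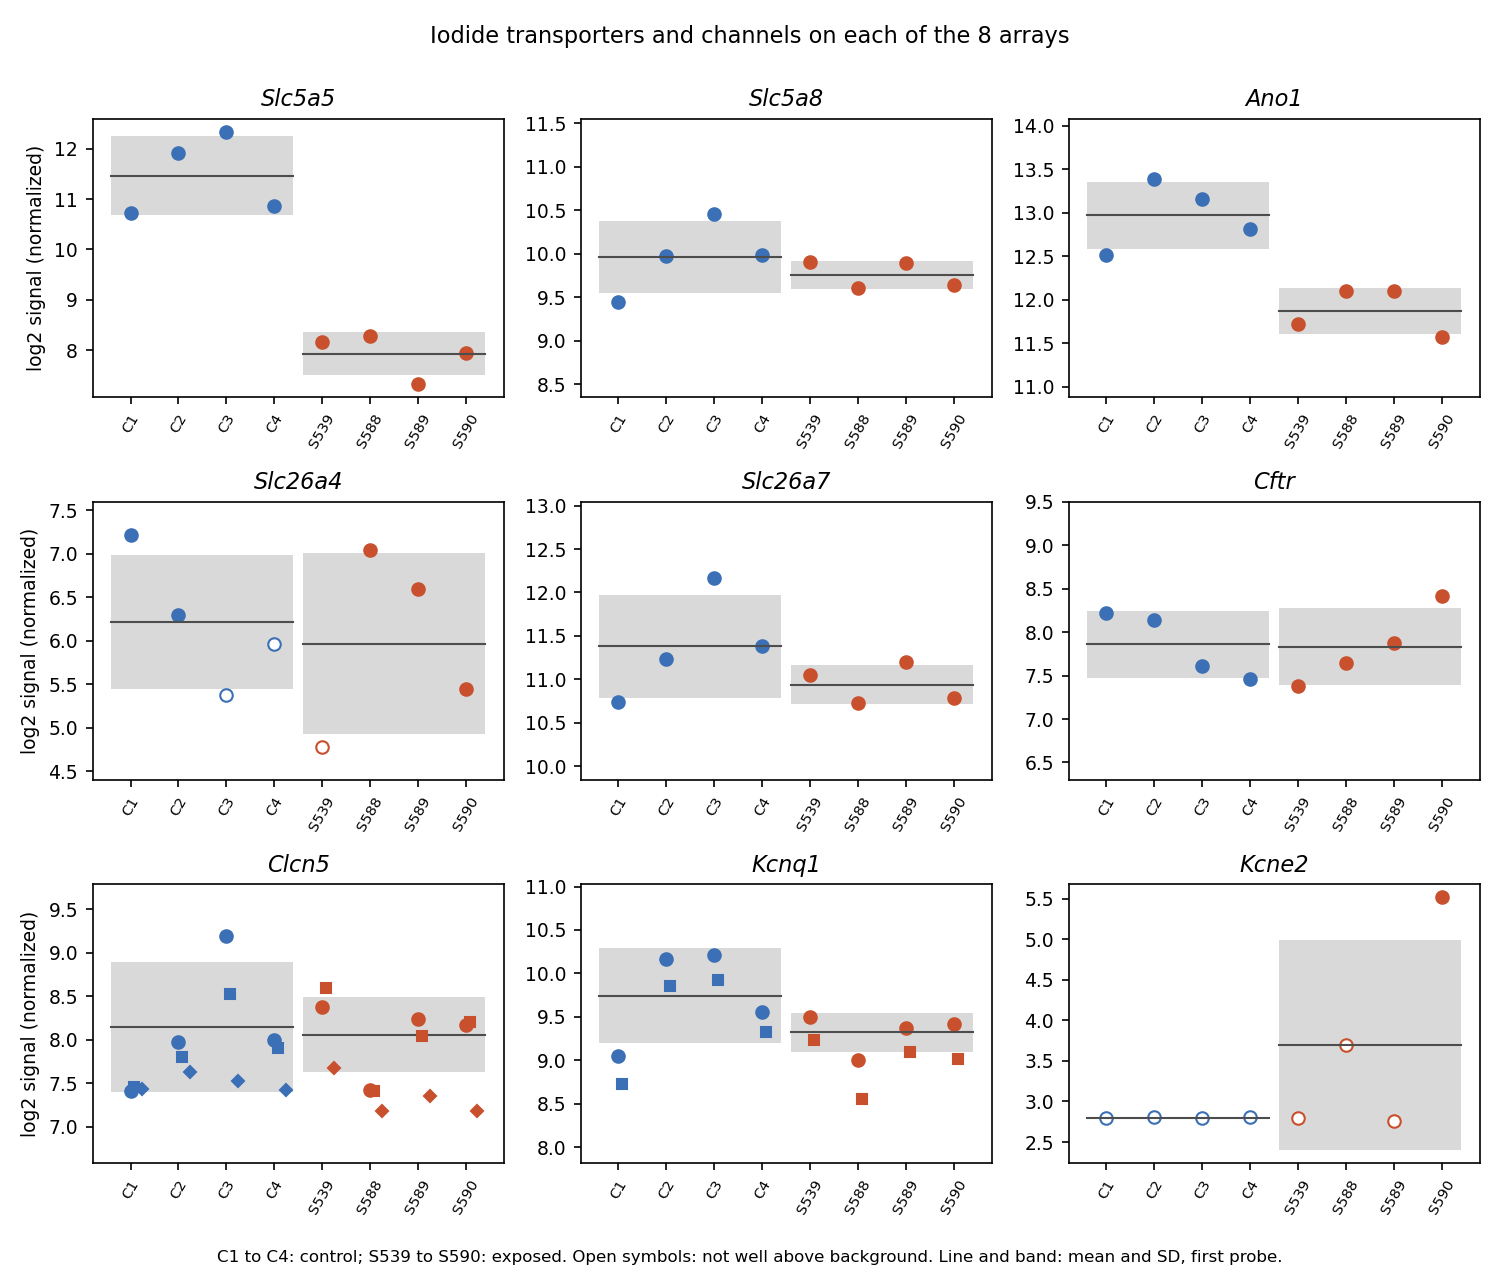
Normalized log2 signal (y axis) of the 9 members on each of the 8 arrays (x axis), in blue for controls C1 to C4 and in red for exposed thyroids, with further probes of a gene as squares and diamonds and open symbols for spots not well above background. Lines and bands are the mean and SD of the first probe. The groups are separate for Slc5a5 and Ano1 and overlap for the other 7 genes.

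Slc5a8, a relative of Slc5a5 that carries short-chain monocarboxylates with sodium, was read at chr10:88391888-88391947 by a probe printed on 10 spots of each array. Its log2 signal was 9.44, 9.97, 10.46 and 9.98 in controls and 9.9, 9.6, 9.89 and 9.64 in exposed thyroids. The exposed values lay inside the span of the controls. The difference was -0.21 with a 95% interval of -0.72 to 0.31, and limma's adjusted p was 0.725. The replicate spots give the measuring error within an array: their SD was 0.066 to 0.192 (median 0.092), against an SD of 0.41 between the 4 control thyroids.

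Ano1, the calcium-activated chloride channel also known as TMEM16A, which lets iodide out at the apical membrane, had the next most negative difference. The controls read 12.51, 13.39, 13.16 and 12.81, and the exposed thyroids 11.72, 12.1, 12.1 and 11.57. Again the groups did not overlap, with a gap of 0.41 between them. Over all probes, 4.37% had every exposed array below every control array, and among the 12 member probes those of Slc5a5 and Ano1 did. The Ano1 difference was -1.09 with a 95% interval of -1.63 to -0.56, which is a control signal 2.13-fold the exposed one (1.47 to 3.1). A two-sided exact permutation test gave p = 0.0286, the smallest value that 4 against 4 arrays allow. limma's adjusted p over all probes was 0.104, so Ano1 was not called. Whether it was called depended on the processing of the signal: limma's adjusted p was 0.0297 after normexp background correction, 0.0276 without background subtraction, 0.028 in the deposited values and 0.0465 with a variance trend, at differences of -1.12 to -1.09. Over all probes, 744 to 962 were called under these settings, against 435 under the main one.

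Slc26a7, an anion exchanger of the SLC26 family that the thyroid needs for hormone synthesis, was read at chr4:14432420-14432479. Its log2 signal was 10.74, 11.24, 12.17 and 11.38 in controls and 11.05, 10.73, 11.2 and 10.79 in exposed thyroids. The controls spread over 1.43 and the exposed thyroids over 0.47, and the exposed values overlapped the lower controls. The difference was -0.44 (95% interval -1.13 to 0.25), and limma's adjusted p was 0.575.

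Slc26a4 encodes pendrin, the exchanger mutated in Pendred syndrome, and was dim in these mice. Its probe at chr12:32204766-32204825 was well above background on 2 control and 3 exposed arrays. The controls read 7.22, 6.3, 5.38 and 5.96, and the exposed thyroids 4.78, 7.05, 6.6 and 5.44. The difference of -0.25 had the widest interval of the members above background, -1.58 to 1.09, and limma's adjusted p was 0.887. That interval includes a doubling and a halving, so the values exclude neither.

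Cftr, the cyclic AMP-regulated chloride channel, was read at chr6:18270974-18271033 and showed no separation at all. Its signal was 8.22, 8.14, 7.61 and 7.46 in controls and 7.38, 7.65, 7.88 and 8.42 in exposed thyroids. The difference was -0.03 (95% interval -0.67 to 0.62), with an adjusted p of 0.977 in limma.

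Clcn5, a chloride and proton exchanger of endosomes, had 3 probes on the X chromosome, of which a pair overlapped by 55 bases. The brightest, at chrX:6736600-6736659, read 7.41, 7.97, 9.19 and 8 in controls and 8.38, 7.42, 8.24 and 8.17 in exposed thyroids. Its difference was -0.09 (95% interval -1 to 0.82), and the probe that overlaps it gave 0.14. The third probe, at chrX:6735790-6735849, was the steadiest of the 3, with a control SD of 0.1 and a difference of -0.16 (95% interval -0.51 to 0.2). limma's adjusted p was 0.701 to 0.946 over the 3 probes.

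Kcnq1, the pore-forming subunit of the basolateral potassium channel, gave like values through both of its overlapping probes. The RefSeq probe read 9.05, 10.17, 10.21 and 9.56 in controls and 9.5, 9, 9.37 and 9.42 in exposed thyroids, so that control 1 lay among the exposed values and the other controls above them. The difference was -0.42 (95% interval -1.08 to 0.23) and limma's adjusted p was 0.571. The Ensembl probe gave -0.49 with an adjusted p of 0.537 in limma.

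Kcne2, the partner subunit of Kcnq1 in this channel, was well above background on no control array and on 1 exposed array, S590, where it read 5.52. The remaining arrays read 2.76 to 3.7 at chr16:92298236-92298295. No fold is given, since no control was well above background. The lowest log2 signal marked well above background averaged 5.31 over the control arrays, more than the exposed Kcne2 mean of 3.69.

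**Figure D2:**
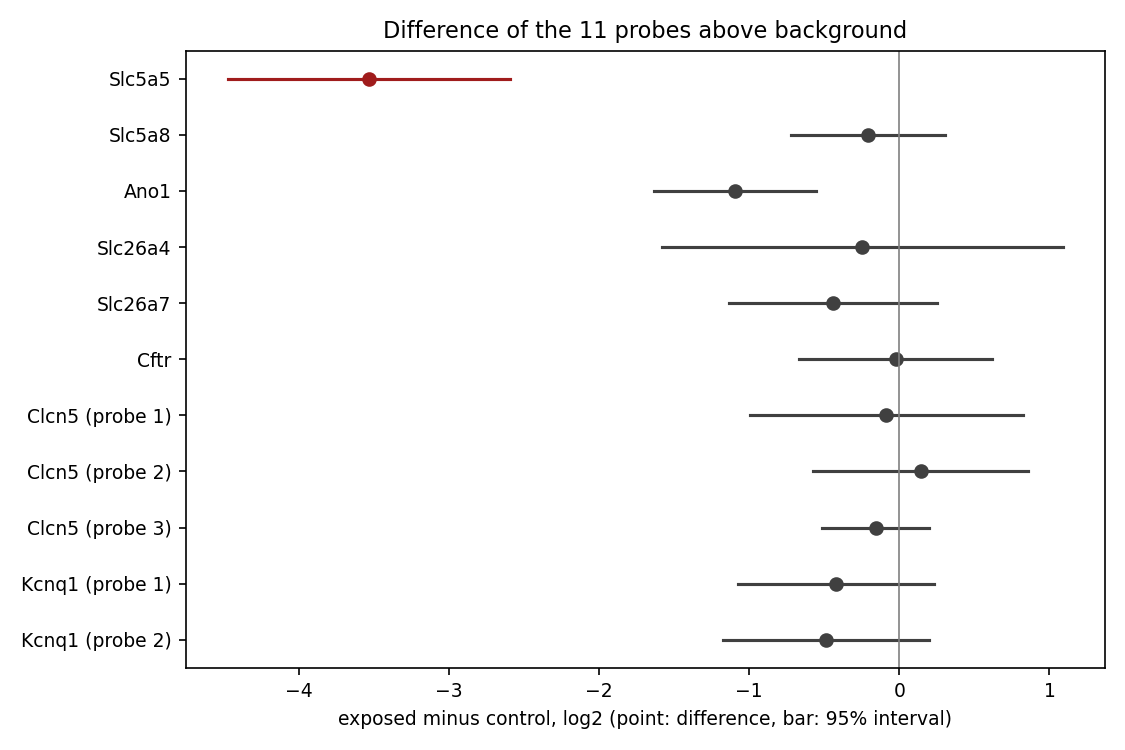
Difference between exposed and control thyroids in log2 units (x axis) for the 11 probes of the members other than Kcne2 (y axis), with 95% intervals from limma and the called probe in red. Slc5a5 lies at -3.53, the interval of Ano1 (-1.63 to -0.56) excludes 0, and the other 9 intervals include it.

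The mean signal of all 8 members other than Kcne2 was lower in exposed thyroids, with a median difference of -0.34, against -0.03 over all RefSeq genes, but the sign of Slc26a4, Cftr and Clcn5 turned positive when arrays were scaled to their 75th percentile, and that of Cftr also under the other background corrections and in the deposited values. With Kcne2 at its fitted value the median of the 9 was -0.25. Apart from Slc5a5 and Ano1, the control and exposed thyroids overlapped for every member.

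The control thyroids varied together. Control 1 was the lowest control for Slc5a5, Ano1, Slc26a7, Slc5a8, Kcnq1 and Clcn5, and the mean log2 signal of the 10 thyrocyte markers was lowest there too, at 11.91 against 12.55, 12.79 and 12.12 in controls 2 to 4. In the exposed thyroids the marker mean was 11.93 to 12, a difference of -0.39 between the group means. Of the 10 markers 8 had a lower mean in exposed thyroids, with a median difference of -0.41, 0 were called by limma and 2 had an unadjusted p under 0.05. Markers of other cell types also had lower means in exposed thyroids, namely all 8 of skeletal muscle, all 10 of thymocytes and T cells, all 6 of fibroblasts and 7 of 8 of macrophages. Of these 4 lists, 0 genes were called by limma, 4 had an unadjusted p under 0.05, all in macrophages and fibroblasts, and each gene was well above background on at least 1 array. In the other lists lower means were found for 2 of 9 C cell, 1 of 4 parathyroid, 1 of 6 adipocyte and 2 of 6 endothelial markers, and for 2 of 4 ciliated epithelium markers. Foxj1, of the last list, was called higher (2.49, adjusted p of 0.0213 in limma). Tekt1 of the same list went the other way without being called (-1.83, adjusted p of 0.0899 in limma). Its remaining genes, Rsph1 and Ccdc39, had -0.105 and 0.143, so the list had no common direction. The summed log2 level of the muscle list was 19.58 to 20.72 in controls and 18.45 to 20.25 in exposed thyroids. That of the thymocyte and T cell list was 15.83 and 14.86 in controls 1 and 2. In controls 3 and 4 it was 12.16 and 12.15, below every exposed thyroid (12.29 to 12.88). The lower level of this list in exposed thyroids thus rests on controls 1 and 2. The part of these shifts in the Slc5a5 and Ano1 results was not tested, beyond the subtraction that follows and the arrays left out above.

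Each member was therefore also expressed relative to the mean of the 10 thyrocyte markers on the same array. Slc5a5 lay at -1.17, -0.64, -0.46 and -1.25 relative to the markers in controls and at -3.76, -3.66, -4.61 and -4.06 in exposed thyroids. The groups remained apart, and the difference was -3.14. For Ano1 the relative difference was -0.7, from 0.63 ± 0.2 (SD, n = 4) to -0.08 ± 0.29 (SD, n = 4), and every exposed thyroid lay below every control. Both gave p = 0.0286 by the two-sided exact permutation test, which is the smallest it allows, and 0.129 after Benjamini-Hochberg adjustment over the 9 comparisons made.

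The remaining members did not separate on this relative scale. Slc26a7 differed by -0.05 and Kcnq1 by -0.03 relative to the markers, compared with -0.44 and -0.42 before the subtraction. The spread between controls also narrowed for these genes, with the SD of Kcnq1 going from 0.55 to 0.195, that of Slc5a8 from 0.41 to 0.19 and that of Slc5a5 from 0.79 to 0.39. It narrowed for 6 of the 8 members other than Kcne2 and widened for Slc26a4 and Cftr. Slc5a8 differed by 0.19, Clcn5 by 0.31, Cftr by 0.37 and Slc26a4 by 0.14, with exact permutation p of 0.2 to 0.914. Kcne2, which was below background on 7 arrays, differed by 1.285 with an exact permutation p of 0.0857.

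**Figure D3:**
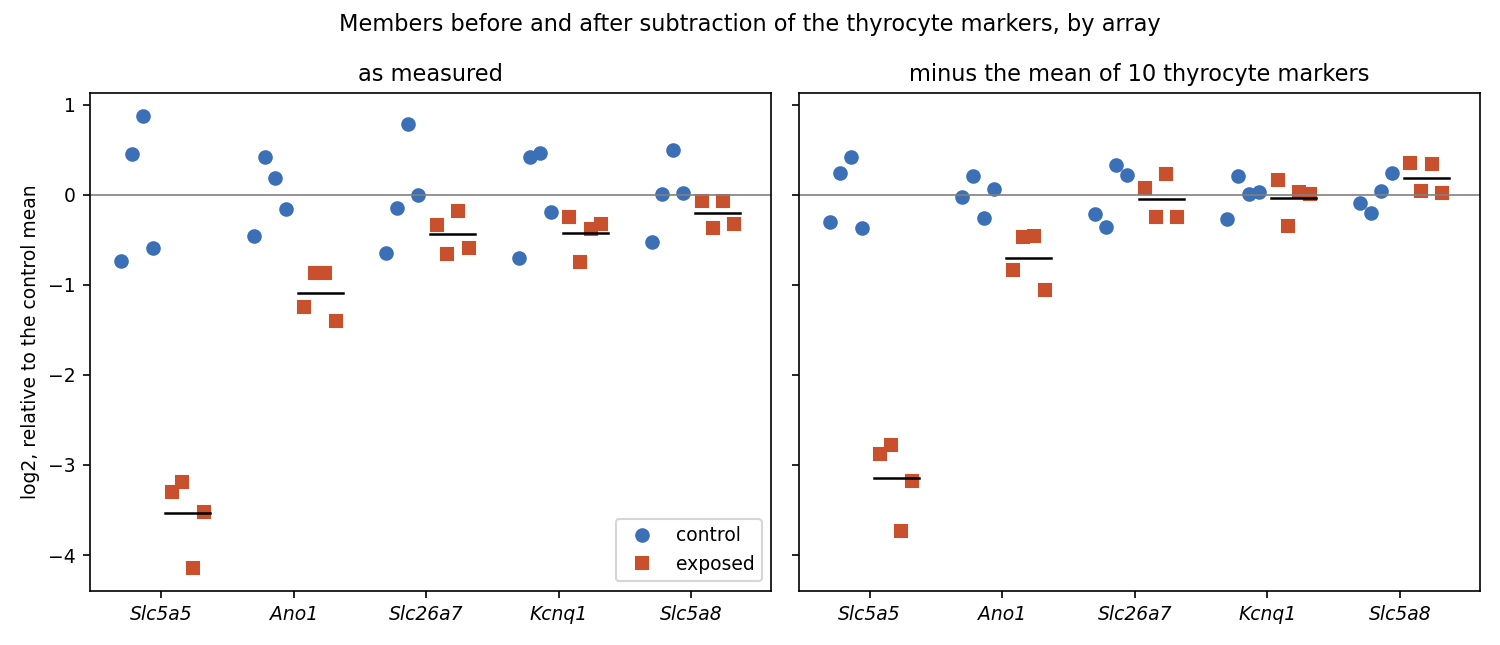
Log2 signal of 5 members on each array, set to 0 at the control mean (y axis), as measured on the left and after subtraction of the mean of the 10 thyrocyte markers on the right. Blue circles are controls, red squares exposed thyroids and black lines the exposed means: Slc26a7 and Kcnq1 come to -0.05 and -0.03 after subtraction, while Slc5a5 and Ano1 stay below all controls.

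Slc5a5 was also compared within arrays with the 7 other members that were above background on some array of both groups. The difference between Slc5a5 and the other gene was lower on all 4 exposed arrays than on any control in each of the 7, by -2.44 against Ano1 and by -3.09 to -3.51 against the others. Each gave the smallest p of the exact permutation test (two-sided, 0.0286), and all share the Slc5a5 values. Against the dim Slc26a4 the exact permutation p was 0.0571 when arrays were scaled to their 75th percentile. The comparison with Kcne2, which was below background on 7 arrays, is not counted. Slc5a5 and Ano1 therefore differed unequally on these arrays, by more than the spread between thyroids.

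Among the 13766 other RefSeq genes whose log2 signal averaged 7 or more, those most like Slc5a5 over the 8 arrays were Dio1 (Pearson's r 0.991), Msx1 (0.988), Arhgap33 (0.988), Arhgef25 (0.986) and Inpp5j (0.985). The arrays fall into separate groups for Slc5a5, so these r values are descriptions of a pattern over 8 arrays and not of its size. The differences were -0.24 for Msx1, -0.69 for Arhgap33, -0.51 for Arhgef25 and -1.11 for Inpp5j. None of these genes was called (adjusted p of 0.069 to 0.451 in limma). Dio1, which encodes type 1 deiodinase, was 13.62, 14.39, 14.52 and 13.51 in controls and 11.38, 11.84, 11.1 and 11.84 in exposed thyroids. It fell by 2.46 on the log2 scale, with an adjusted p of 0.0153 in limma, and it shared the order of the controls in that controls 2 and 3 were high and 1 and 4 low. Of the members, Ano1 was most like Slc5a5 by the same measure (0.92), followed by Kcnq1 (0.66) and Slc26a7 (0.61).

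The proteins that work with these transporters were read from 7 lists, each gene by its brightest RefSeq probe. None of the 14 sodium pump and FXYD subunits, which keep up the gradient that NIS uses, was called by limma, and their median difference was -0.21. Fxyd4 (-0.58) was the 1 gene of this list that passed an unadjusted p of 0.05. Fxyd2, a modulator of the pump, had the most negative value, -1.5 (adjusted p of 0.412 in limma), and its controls ranged from 9.98 to 13.46. Fxyd7, of the same family of small pump-associated proteins, had 0.85 (adjusted p of 0.487 in limma), with controls from 7.25 to 8.58 and exposed thyroids from 7.61 to 9.25.

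Within the family of Slc5a5, 1 of 11 other Slc5 cotransporters was called, and it went the other way. Slc5a3, which imports myo-inositol with sodium, read 10.12, 10.14, 10.64 and 10.24 in controls and 12.49, 12.22, 12.4 and 12.35 in exposed thyroids. It rose by 2.08 (standard error 0.16), at an adjusted p of 0.0032 in limma. The groups lay far apart and each was tight, with an SD of 0.25 (n = 4) in controls and 0.11 (n = 4) in exposed thyroids. Slc5a12, a monocarboxylate transporter close to Slc5a8, differed by 1.11 without being called (adjusted p of 0.298 in limma). The median of the 11 was -0.01.

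None of the other channel relatives passed the threshold. The 9 other anoctamins, the family of Ano1, had a median difference of -0.11 and 0 with an unadjusted p under 0.05 in limma, and Ano6, a scramblase, and Ano8 had -0.22 and 0.41. The 8 other KCNQ and KCNE subunits had a median of -0.09 and 2 at that unadjusted level, Kcne3 and Kcne4. Kcne3 had -0.73 (adjusted p of 0.265 in limma), Kcne4 had 0.54, and Kcne1l, which was not at that level, had 0.08. The 10 other ClC channels and exchangers had a median of -0.1 and likewise 2. Their most negative value was that of Clcn1, the chloride channel of skeletal muscle, at -1.94 (adjusted p of 0.367 in limma), and the muscle markers given above had lower means in the exposed thyroids. Clcn2, a widely expressed chloride channel, had 0.68 (adjusted p of 0.318 in limma), with controls from 9.29 to 9.77 and exposed thyroids from 9.91 to 10.84. The groups did not overlap, but the share of all probes separated upward is not given, so nothing is read from it.

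Of 9 genes of iodination and iodide recycling, 1 fell and 1 rose. The one that fell was Dio1, given above, and the one that rose was Duoxa1, the maturation factor of the oxidase Duox1, at 2.39 (adjusted p of 0.00171 in limma). None of the 12 regulators of iodide uptake was called by limma, and the median of the 12 was -0.22. Of these, 3 had an unadjusted p under 0.05, namely Creb3l1, Pttg1 and Glis3 (-0.58). Creb3l1, a transcription factor picked out here after its values were seen, differed by 0.6 (adjusted p of 0.0895 in limma), and it was called with normexp, without background subtraction and in the deposited values. Foxe1, a thyroid transcription factor, had -0.85 (adjusted p of 0.499 in limma) and Pttg1, a securin that represses NIS in thyroid cells, -0.78 (0.394).

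**Figure D4:**
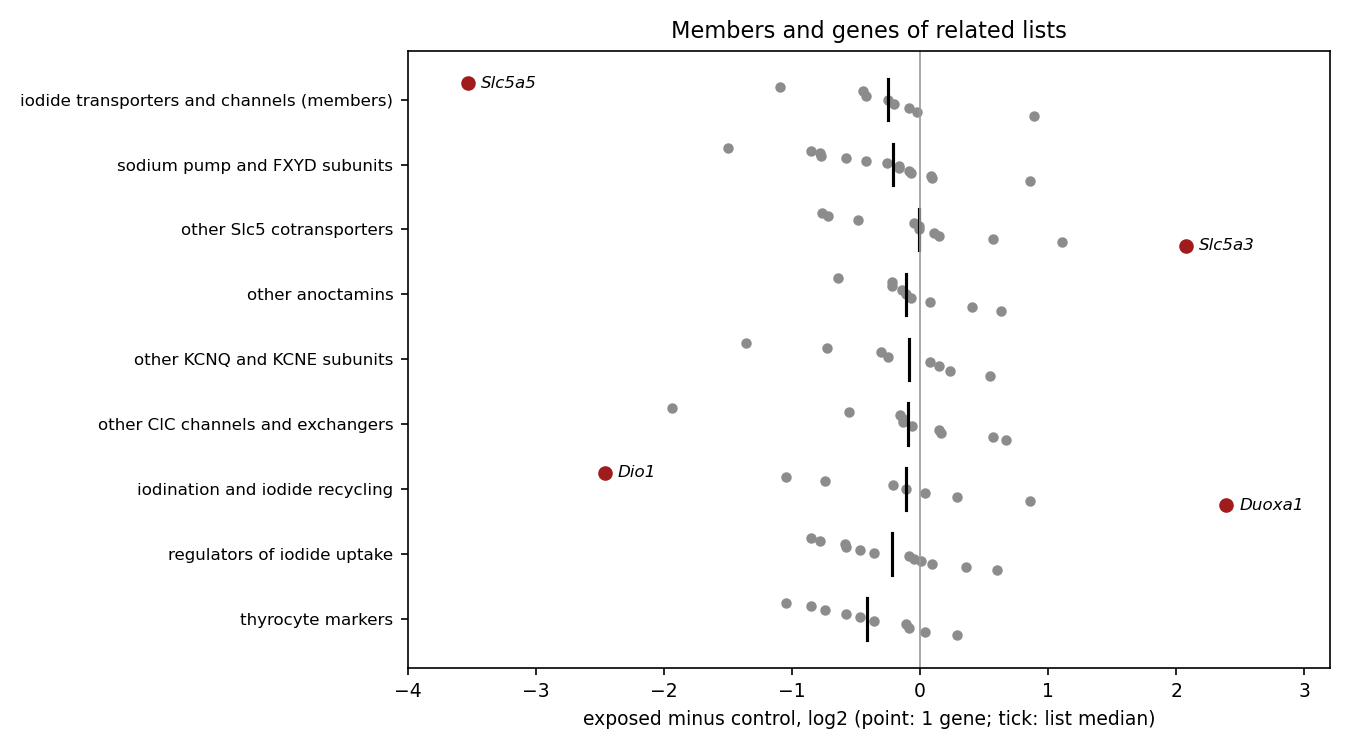
Difference between exposed and control thyroids in log2 units (x axis) for every gene of the members, of the 7 related lists and of the thyrocyte markers (y axis), with called genes in red and named and a black tick at each list's median. Slc5a5 (-3.53) and Dio1 (-2.46) lie lowest and Duoxa1 (2.39) and Slc5a3 (2.08) highest, and Kcne2, which was not above background in controls, is drawn at its fitted 0.89.

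**Figure D5:**
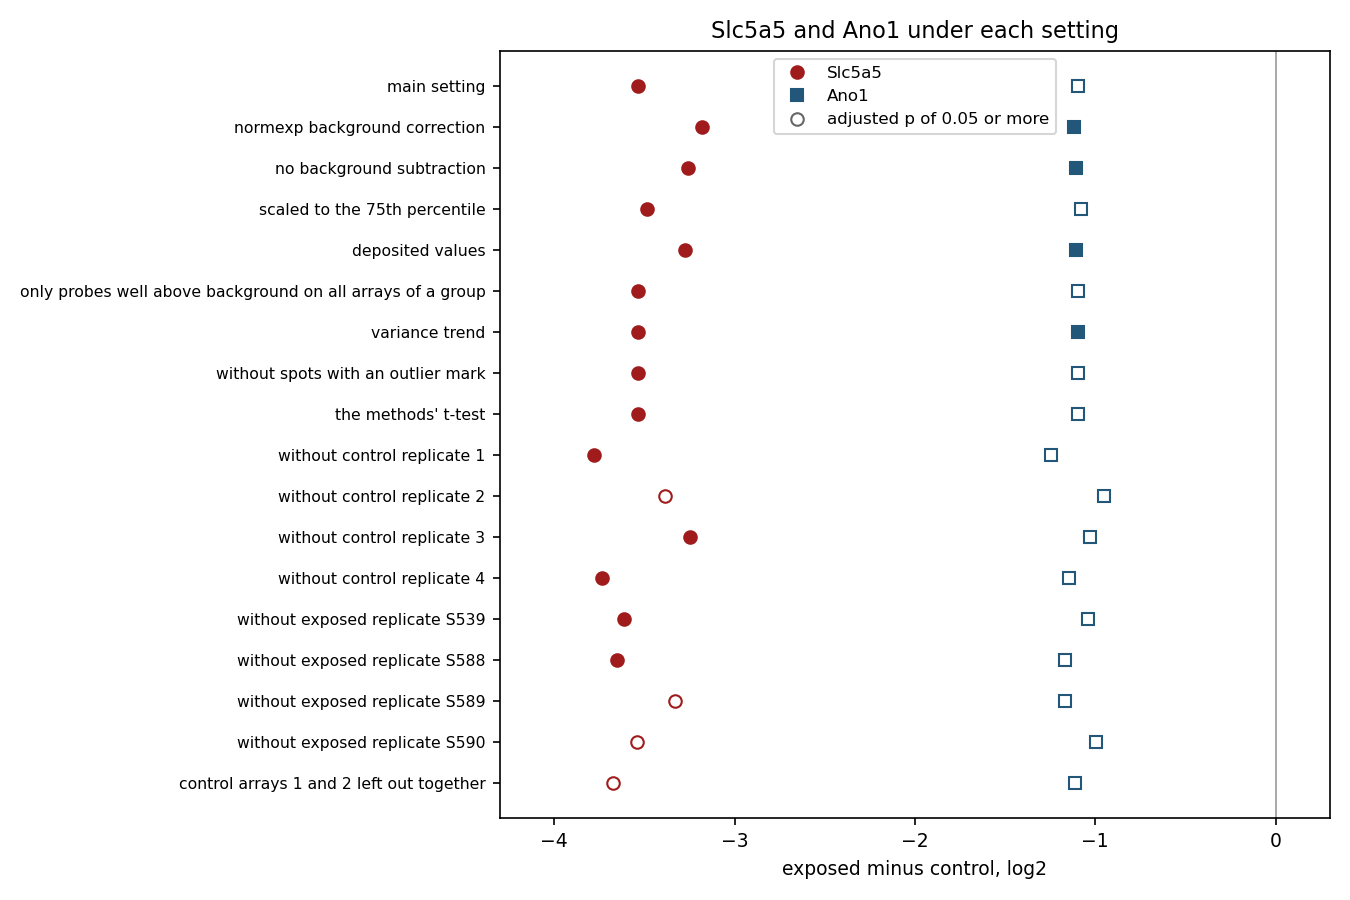
Difference in log2 units (x axis) of Slc5a5 (red circles) and Ano1 (blue squares) under the main setting and 17 alternatives (y axis), filled where limma's adjusted p, or that of the methods' own test, was under 0.05. Slc5a5 stays between -3.78 and -3.18 and Ano1 between -1.25 and -0.95, with Slc5a5 under the threshold in 13 alternatives and Ano1 in 4.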

How the data were processed

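RNA of 8 thyroids, 4 control and 4 exposed, was hybridised to SurePrint G3 one-colour arrays. The authors scanned them and deposited the intensity of each spot as given by Feature Extraction 10.7.3.1, with probe positions in mm9. They also deposited log2 values, which differed by at most 0.0378 from the quantile-normalized log2 median signal without background subtraction. Per the methods, normalization was by quantiles in limma, with a threshold of 0.05 on the adjusted p.

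Here control spots were left out, log2 of gProcessedSignal was quantile-normalized over 59305 spots, and spots of a probe were averaged. R 4.3.3 and limma 3.58.1 (lmFit, eBayes) compared the groups over 55681 probes, with Benjamini-Hochberg adjustment and no covariate. A gene was read by its brightest RefSeq probe, and all other probes of a member are reported too. Single values were compared by the two-sided exact permutation test over the 70 assignments of the arrays. The procedure was tested on simulated arrays. Precision is limited by the number of arrays.

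The members and the other gene lists (18 lists in all) were chosen with earlier results of these data known, from general knowledge of the proteins. From each related list the text names every called gene and those 2 with the largest difference at a mean log2 of at least 7. Fxyd4, Kcne4, Glis3 and Creb3l1 are named besides, after their values were seen. Names are those of the array annotation. The alternatives were normexp with an offset of 50, no background subtraction, the deposited values, scaling to the 75th percentile, a filter that kept the probes marked above background throughout either group (10 of the 12 member probes), a variance trend, spots with an outlier mark left out, the methods' t-test and each array left out. That t-test is Student's, which the study gives in its general statistics for comparing 2 conditions and does not state for the arrays. Leaving out controls 1 and 2 together, and the alternatives for single values and for the related lists other than the deposited values and the scaling, were chosen after seeing the data. Some genes are not reported here.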

Additional observations from a re-analysis of the deposited data

How the results depend on the processing

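Slc5a5 kept its direction under all 17 alternatives. Its adjusted p passed the threshold under 13 and lay between 0.0521 and 0.086 in the others, which hold fewer arrays (without control 2, S589 or S590, at -3.38, -3.33 and -3.54, and without controls 1 and 2, at -3.67). Over all probes, 89 to 117 were called in these others, against 435 with all arrays. With 1 array left out, 0 to 1 member probes and 0 to 1 member genes were called lower, Slc5a5 ranged from -3.78 to -3.24, and 2 to 3 genes of the related lists were called. With controls 1 and 2 left out, 0 member probes and 0 member genes were called.

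With normexp, without background subtraction, in the deposited values and with a variance trend, 2 member probes and 2 member genes were called lower, Ano1 being the added one. Calls over all 55681 probes rose too, from 435 to 856, 962, 955 and 744 in the same order of settings. The related lists then held 5 called genes with normexp, 6 without background subtraction and 6 in the deposited values, against 3. The added genes were Duox1 and Creb3l1 and, in the last pair of settings, Duoxa2. The cause was not tested.

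Scaling to the 75th percentile moved the median of all probes from 0.008 to 0.165. Slc26a4 (0.056), Cftr (0.13) and Clcn5 (0.001) turned positive under it, and lay at -0.11, -0.03 and -0.16 relative to that median. Cftr was also positive with normexp (0.13), without background subtraction (0.127) and in the deposited values (0.128), and with 1 array left out ranged from -0.22 to 0.13. Without controls 1 and 2, Cftr was 0.299 and Slc26a4 0.297. With 1 array left out, Slc26a4 ranged from -0.61 to 0.15 and Clcn5 from -0.33 to 0.26, and the second Clcn5 probe gave 0.14. None of these was called under any alternative run. By the methods' t-test 2 member probes, of Slc5a5 and Ano1, passed the methods' unadjusted threshold and 1, of Slc5a5, did after adjustment. The filter on dim probes left out Slc26a4 and Kcne2. By exact permutation, 3 members against 2 passed relative to the thyrocyte markers with normexp, without background subtraction and in the deposited values. The added one was Kcne2, which was below background on 7 arrays. It was higher in exposed thyroids (0.71), unlike Slc5a5 and Ano1. As a single value Kcne2 also passed under the last pair, again higher (0.34). The share of all genes that passed is not given, so these counts are not read as results. Slc5a5 against Slc26a4 had an exact permutation p of 0.0571 after scaling to the 75th percentile, so that 7 of 8 such comparisons passed there against 8.

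No paired analysis was possible because the labels of both groups share no replicate numbers. Of 24 sets of 4 values, 0 held an outlying array.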
